A study of Homo sapiens with 6 samples.

Results

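The genes described here are the GADD45 family (GADD45A, GADD45B and GADD45G), CDKN1A and MDM2, which are 5 of the 37993 gene symbols measured. They were matched by symbol, and all 5 were in the table. They were selected on values from these same libraries, because GADD45A and GADD45B had been seen to be higher with ATF6 alleles that raise ATF6 target genes. Their levels and ratios are therefore a description, and they are set beside all genes without a test. The study compared 6 cultures of HEK293T, a human embryonic kidney cell line that is easily transfected. ATF6 is a transcription factor held in the endoplasmic reticulum (ER) membrane until ER stress releases its active fragment. One culture was the non-transfected control, although the growth protocol also speaks of an empty vector. The other 5 were transfected with Lipofectamine and overexpressed ATF6 labelled WT, a missense allele (M67V), a nonsense allele (N267star), or an allele with a deletion of several exons (ex8-14del or ex2-3del). The authors named the comparison sheet for the WT library X373, and a second deposited count table carries the same number in place of WT. Whether the WT construct was full length is unstated in the sources used here. The cells also keep their own ATF6 gene, and reads from it and from the introduced allele were counted together. Each group held 1 library, so no test between conditions was possible. Transfection itself and the presence of an allele cannot be told apart here, since all 5 transfected libraries carry an allele. In bulk RNA, a change in a few cells and a change in all cells cannot be told apart either.

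GADD45 proteins are small, acidic nuclear proteins that are induced by growth arrest, DNA damage and other stresses. They bind the kinase MAP3K4, which activates the p38 and JNK pathways, and also PCNA, p21 and the CDK1 and cyclin B1 complex. CDKN1A encodes p21, which inhibits cyclin-dependent kinases and holds the cell cycle. MDM2 encodes a ubiquitin ligase that marks proteins of the DNA damage response for degradation. GADD45A, CDKN1A and MDM2 are known to respond to DNA damage, and GADD45B is known to respond to NF-kB and TGF-beta signals as well.

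The libraries held between 16023926 and 16813314 counts. ATF6 stood at 85.1 CPM (counts per 1000000 counts of effective library size) in the non-transfected library and between 713 and 2410 CPM in the 5 transfected libraries. The 5 reference ATF6 targets HSPA5, HSP90B1, HERPUD1, SEL1L and PDIA4 had a median log2 ratio to the non-transfected library of 2.10 in WT and 2.17 in M67V, against 0.10 in ex2-3del, 0.26 in ex8-14del and 0.26 in N267star. Of 9 markers of embryonic kidney and of this line, 8 reached 1 CPM in at least 1 library, with a summed level between 307 and 340 CPM, and PAX8 did not. Of 9 markers of other cell types, 4 reached 1 CPM (COL1A1, ACTA2, CD68 and COL3A1), DCN had no count, and the summed level lay between 56.2 and 62.2 CPM.

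The upstream sequences of the members are shown first because ATF6 acts through short promoter elements. RefSeq windows (GRCh38.p14) of 250 bases directly upstream of an annotated start were at hand for 4 of the 5 members, GADD45B, GADD45G, CDKN1A and MDM2. The full ER stress element is a CCAAT box, 9 bases of any kind and CCACG, and the ER stress element II is ATTGG, 1 base and CCACG. In the lines below, capitals mark matches on either strand to the CCAAT box, to the CCACG part or to an E-box (letters CACGTG), and to the full elements. All sequences run 5′ to 3′ along the gene's strand, and HSPA5 and HERPUD1, the ER chaperone BiP and an ER-associated degradation factor, are the ATF6 targets printed for comparison.

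GADD45B, chr19:2475877-2476126, plus strand: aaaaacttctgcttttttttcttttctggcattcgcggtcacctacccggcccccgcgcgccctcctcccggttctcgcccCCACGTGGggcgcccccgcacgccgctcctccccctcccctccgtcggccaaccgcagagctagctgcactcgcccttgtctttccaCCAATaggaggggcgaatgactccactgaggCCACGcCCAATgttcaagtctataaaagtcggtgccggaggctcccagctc
GADD45G, chr9:89604762-89605011, plus strand: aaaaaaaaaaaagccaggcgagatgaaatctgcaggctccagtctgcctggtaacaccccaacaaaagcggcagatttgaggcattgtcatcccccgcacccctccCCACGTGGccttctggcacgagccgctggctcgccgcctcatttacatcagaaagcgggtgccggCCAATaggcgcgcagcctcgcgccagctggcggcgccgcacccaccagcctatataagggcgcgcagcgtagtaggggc
CDKN1A, chr6:36678464-36678713, plus strand: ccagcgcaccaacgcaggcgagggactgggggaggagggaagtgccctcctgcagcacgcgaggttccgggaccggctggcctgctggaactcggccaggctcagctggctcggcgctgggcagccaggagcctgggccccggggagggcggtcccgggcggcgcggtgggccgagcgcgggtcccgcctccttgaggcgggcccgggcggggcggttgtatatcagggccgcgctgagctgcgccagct
HSPA5, chr9:125241344-125241593, minus strand: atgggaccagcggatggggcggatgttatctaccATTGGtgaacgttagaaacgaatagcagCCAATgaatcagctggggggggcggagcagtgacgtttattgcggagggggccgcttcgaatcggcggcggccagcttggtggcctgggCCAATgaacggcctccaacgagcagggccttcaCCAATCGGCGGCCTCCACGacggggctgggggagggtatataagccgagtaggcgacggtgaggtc
HERPUD1, chr16:56931892-56932141, plus strand: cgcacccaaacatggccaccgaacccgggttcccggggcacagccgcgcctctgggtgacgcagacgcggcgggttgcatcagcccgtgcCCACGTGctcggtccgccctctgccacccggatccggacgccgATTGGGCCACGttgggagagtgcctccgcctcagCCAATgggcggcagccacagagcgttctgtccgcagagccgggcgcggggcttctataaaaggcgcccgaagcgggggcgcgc

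The full ER stress element was found in HSPA5, at bases -66 to -48, counted from -1 at the base before the start, and the ER stress element II in HERPUD1, at bases -117 to -107. Neither was found in a window of GADD45B, GADD45G, CDKN1A or MDM2. Among all 35116 windows of this length, 0.074% held the full element and 0.0513% the element II. GADD45B held CCAAT boxes that begin at bases -82 and -45, and its CCACG at bases -51 to -47 lies 1 base from the nearer box. CCAAT and CCACG are common letters, present in 32% and 33.5% of all windows. GADD45B and GADD45G each held an E-box within CCACGTGG, which counts as CCACG on both strands, and 6.34% of windows held an E-box. CDKN1A held none of these matches and 4 GC boxes (GGGCGG, in 42.6% of windows). The 4 overlapping or neighbouring MDM2 windows each held a CCAAT box, in 1 direction or, within CCAATTGG, in both. The ATF6 site TGACGTG, found in 1.68% of windows, and the ATF4 element TGATGNAAT (0.888%) were absent from all member windows. Both were also absent from the HSPA5 and HERPUD1 windows. A match describes letters only, and a missing match says nothing about binding outside the window.

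GADD45A, a gene known to respond to DNA damage, was higher in every transfected library, including those whose ATF6 targets were only slightly above the control. Its level was 25.8 CPM in WT and 24.4 CPM in M67V, 25.05 CPM in ex8-14del and 24.5 CPM in ex2-3del, and 24.1 CPM in N267star, against 17.1 CPM without transfection. The non-transfected library stood alone, and its exact 95% counting interval (15.1 to 19.2 CPM) did not reach that of any other library, the nearest of which began at 21.8 CPM. Intervals here are Poisson for a level and conditional binomial for a ratio. They cover counting error only, so they speak of the libraries and not of the conditions. The log2 ratio to the non-transfected library was 0.59 (0.37 to 0.82) in WT and 0.51 (0.29 to 0.74) in M67V. In ex2-3del it was 0.52 (0.30 to 0.74), in ex8-14del 0.55 (0.33 to 0.77) and in N267star 0.49 (0.27 to 0.72). These 5 ratios share 1 control library, so a low GADD45A count in that library would raise all of them.

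Among themselves the 5 transfected libraries were alike in GADD45A. Their log2 levels spanned 0.10, and of the 11413 genes that reached 5 CPM somewhere 9.76% had a span as small, with a median of 0.20. Against WT, the ratio was -0.08 (-0.28 to 0.12) for M67V and -0.10 (-0.30 to 0.10) for N267star. For the deletions it was -0.07 (-0.27 to 0.13, ex2-3del) and -0.04 (-0.24 to 0.16, ex8-14del). No pair of transfected libraries differed in GADD45A beyond counting error. GADD45A thus did not separate WT and M67V, where HSPA5 was highest, from the other alleles, contrary to the grounds on which it was selected. The intervals still allow a difference of up to 0.30 on the log2 scale between WT and N267star.

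**Figure D1:**
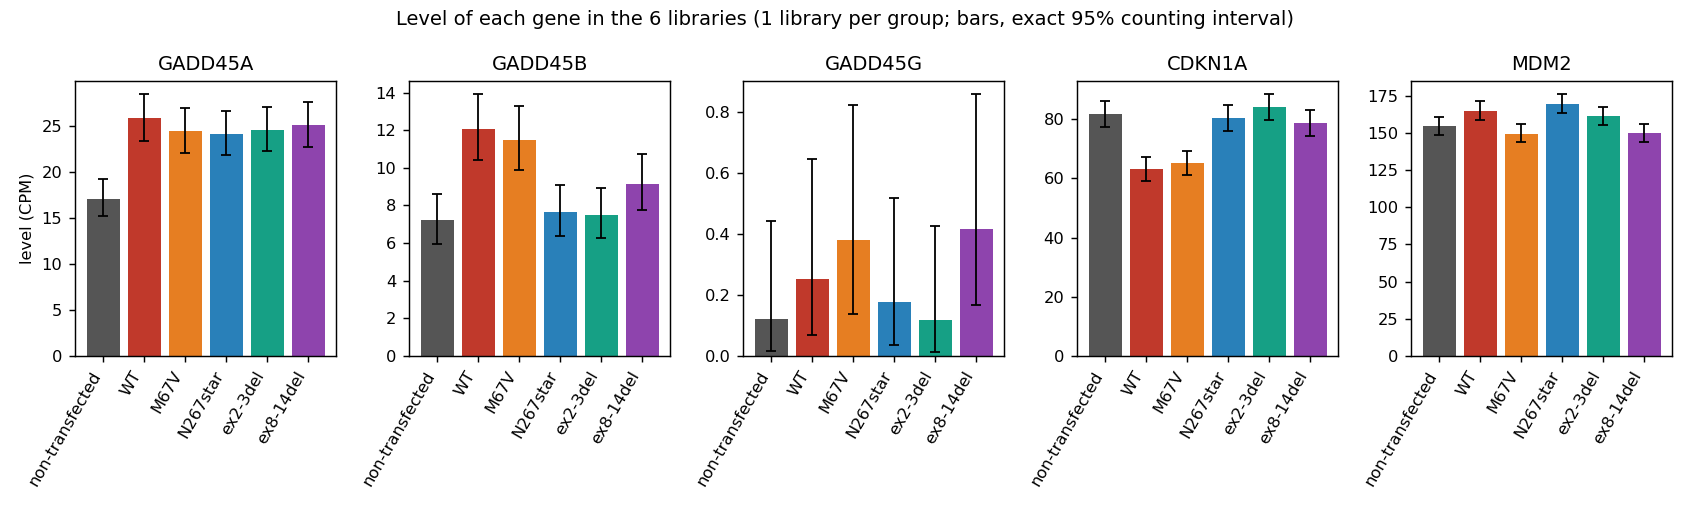
Level in CPM (linear axis from 0) of each gene in the 6 libraries, 1 library per group, with the exact 95% Poisson interval of the count as the error bar. GADD45A is lowest in the non-transfected library, GADD45B is highest in WT and M67V, CDKN1A is lowest in the same 2 libraries, and GADD45G rests on 2 to 7 counts.

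GADD45B, the family member linked to NF-kB and TGF-beta signalling, was highest in the 2 libraries whose ATF6 targets were highest. Its level was 12.1 CPM in WT and 11.5 CPM in M67V, 9.16 CPM in ex8-14del and 7.50 CPM in ex2-3del, and 7.63 CPM in N267star, against 7.20 CPM without transfection. In order, WT and M67V came first, then ex8-14del, then N267star, ex2-3del and the non-transfected library. WT and M67V did not differ beyond counting error (-0.07, -0.37 to 0.23), nor did any pair among the other 4 libraries. Both WT and M67V differed from each of those 4, although M67V against ex8-14del was marginal, at 0.32 (0.008 to 0.64).

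The log2 ratio of GADD45B to the non-transfected library was 0.74 (0.41 to 1.09) in WT and 0.66 (0.33 to 1.02) in M67V, from 118 counts in the control to 192 and 182. It was 0.08 (-0.29 to 0.46) in N267star and 0.06 (-0.31 to 0.43) in ex2-3del. The ex8-14del library lay between, at 0.34 (-0.01 to 0.71). Against WT, GADD45B stood at -0.68 (-1.02 to -0.36) in ex2-3del, -0.65 (-0.997 to -0.33) in N267star and -0.39 (-0.71 to -0.09) in ex8-14del. HSPA5 for comparison stood at 3634 CPM in WT and 3376 CPM in M67V, and between 559 and 741 CPM in the other 4 libraries. Of the 4 measured markers of other cell types, 2 were above the control and 2 below it in both of these libraries. CD68, a macrophage marker, stood at 6.04 CPM in WT and 5.68 CPM in M67V against 3.42 CPM without transfection (0.80, 0.33 to 1.32, and 0.71, 0.23 to 1.24), and COL3A1, a minor collagen transcript here, at 1.95 and 1.77 CPM against 0.977 CPM (0.92, 0.08 to 1.97, and 0.78, -0.08 to 1.84). COL1A1, the more abundant fibroblast collagen, stood at 32.2 CPM in WT and 32.4 CPM in M67V against 35.2 CPM (-0.13, -0.30 to 0.05, and -0.12, -0.30 to 0.05). ACTA2, a smooth muscle actin that overlaps the expressed genes FAS and STAMBPL1, stood at 18.8 and 21.5 CPM against 22.3 CPM (-0.25, -0.47 to -0.02, and -0.05, -0.27 to 0.16). The defining marker DCN had no count and PTPRC at most 0.122 CPM, and the part of these genes in the GADD45B result was not tested.

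GADD45G, the third family member, was close to silent. It had 7 counts in ex8-14del, 6 in M67V, 4 in WT and 3 in N267star, and 2 both in ex2-3del and in the non-transfected library. These counts correspond to between 0.118 and 0.416 CPM, where 3 counts correspond to between 0.177 and 0.189 CPM. The ratio to the non-transfected library had an interval from -0.85 to 4.97 in M67V and from -0.62 to 5.07 in ex8-14del, so no difference was detectable at this depth. GADD45G was below 5 CPM in all 6 libraries and enters none of the counts of genes below, which therefore cover 4 of the 5 members.

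Levels can be set against each other between genes only per length. Per kilobase of the longest coding transcript in GENCODE v29 (1496, 1373 and 1065 bases), GADD45A stood at 11.4, GADD45B at 5.25 and GADD45G at 0.115 CPM per kilobase in the non-transfected library. CDKN1A, with 2267 bases, stood at 36.0 there. In WT the same quantity was 17.3 for GADD45A, 8.80 for GADD45B, 0.236 for GADD45G and 27.8 for CDKN1A. On this scale GADD45A was the most abundant GADD45 transcript in both libraries, and CDKN1A exceeded it in both.

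CDKN1A, which encodes the CDK inhibitor p21, was lower in the WT and M67V libraries and close to the control in the others. Its level was 63.1 CPM in WT and 65.2 CPM in M67V, 78.6 CPM in ex8-14del and 84.0 CPM in ex2-3del, and 80.2 CPM in N267star, against 81.7 CPM without transfection. The intervals of WT (59.2 to 67.1 CPM) and M67V (61.3 to 69.3 CPM) lay below those of the other 4 libraries, which began at 74.4 CPM. The log2 ratio to the non-transfected library was -0.37 (-0.49 to -0.25) in WT and -0.33 (-0.44 to -0.21) in M67V. In ex2-3del it was 0.04 (-0.07 to 0.15), in ex8-14del -0.06 (-0.17 to 0.06) and in N267star -0.03 (-0.14 to 0.08).

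Against WT, CDKN1A was higher by 0.41 (0.29 to 0.53) in ex2-3del, by 0.35 (0.23 to 0.47) in N267star and by 0.32 (0.20 to 0.44) in ex8-14del. M67V did not differ from WT beyond counting error (0.05, -0.08 to 0.17). In the order of levels the single step beyond counting error lay between ex8-14del and M67V, at 0.27 (0.15 to 0.39) on the log2 scale. CDKN1A was thus the member that ran opposite to GADD45B, and neither WT nor M67V reached 1.5-fold.

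MDM2, the ubiquitin ligase, varied little. Its level was 165 CPM in WT and 149.6 CPM in M67V, 149.9 CPM in ex8-14del and 161 CPM in ex2-3del, and 169.8 CPM in N267star, against 155 CPM without transfection. The span over the 6 libraries was 0.18 on the log2 scale, and 36.4% of the 11413 genes had a span as small. The ratio to the non-transfected library was 0.09 (0.01 to 0.17) in WT, -0.05 (-0.13 to 0.03) in M67V and 0.13 (0.06 to 0.21) in N267star. In ex2-3del and ex8-14del it was 0.06 and -0.05, with intervals that include 0. WT and M67V, alike in the other members, differed in MDM2 beyond counting error, at -0.14 (-0.22 to -0.06) for M67V against WT. An interval off equality is common at such depth, however, since it held for between 20.2% and 33.9% of all genes tested across the 9 comparisons.

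**Figure D2:**
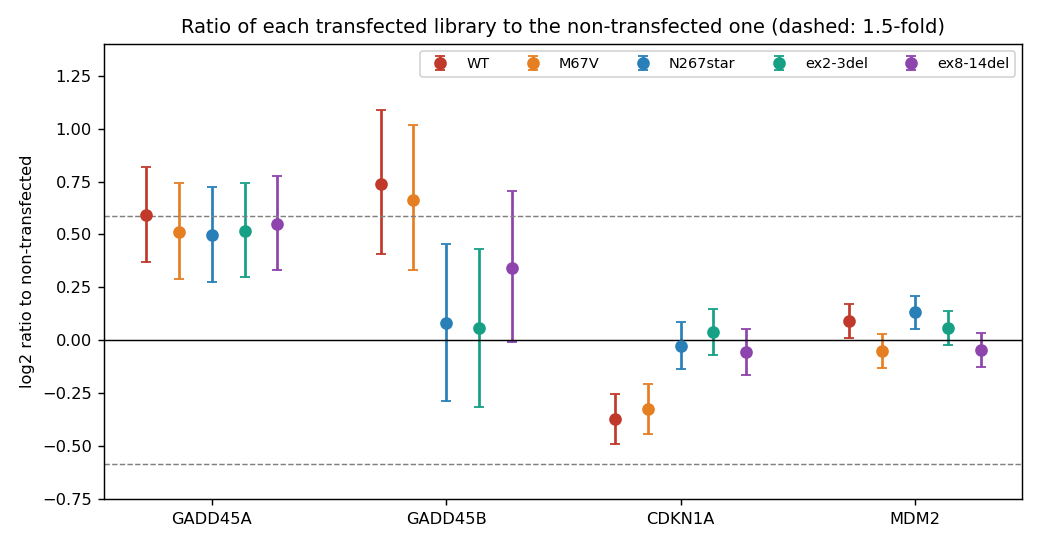
Log2 ratio of each of the 5 transfected libraries to the non-transfected library for the 4 members above 5 CPM, with exact 95% conditional binomial intervals (counting error only) and dashed lines at 1.5-fold. All 5 points of GADD45A lie between 0.49 and 0.59. WT and M67V are the highest in GADD45B and the lowest in CDKN1A, and ex8-14del lies between in GADD45B, at 0.34 (-0.01 to 0.71).

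The members were then set beside all genes, using a criterion of size, since no test was possible. A gene met it with a ratio of 1.5-fold or more and an interval clear of 0, and was eligible with 5 CPM or more on either side. Among the 4 members above that level, GADD45A and GADD45B met it as higher in WT, where 1.4% of 11301 genes did, and GADD45B alone in M67V, where 1.62% did. GADD45A stood at 1.51-fold in WT, just past the criterion. With library totals in place of TMM factors it fell short, which left 1 member in WT. None of the 4 was higher by the criterion in N267star, ex2-3del or ex8-14del, where 0.133%, 0.168% and 0.355% of genes were. None was lower in any of the 5 libraries, where 0.319% (WT), 0.284% (N267star), 0.24% (ex8-14del), 0.239% (M67V) and 0.142% (ex2-3del) of genes were. As the members were selected on these contrasts, nothing is read from these counts.

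With WT as the reference, GADD45B was lower by the criterion in N267star and in ex2-3del, where 1.34% and 1.27% of all genes were lower. No member was lower in ex8-14del (background 1.14%) or in M67V (background 0.168%). None was higher in M67V (0.177%), N267star (0.142%), ex2-3del (0.212%) or ex8-14del (0.266%). The WT and non-transfected comparisons share libraries, so these are not separate evidence.

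The ranks show how unusual each ratio was among all genes tested, as a description. In N267star, 29 of 11263 genes (0.257%) had a ratio to the non-transfected library at least as high as that of GADD45A, and in ex2-3del 30 of 11279 (0.266%) did. In ex8-14del the number was 45 of 11263 genes (0.400%), while in WT it was 155 of 11301 (1.37%) and in M67V 222 of 11304 (1.96%). The GADD45A ratio was thus of similar size in each library but further out in the 3 libraries in which the fewest genes were higher by 1.5-fold. For GADD45B, 1.08% of genes were at least as high in WT and 1.27% in M67V, against 28.6% in N267star and 29.2% in ex2-3del. In ex8-14del 1.56% of genes were at least as high. For CDKN1A, 1.52% of genes were at least as low in WT and 1.41% in M67V. MDM2 lay well inside the distribution in each library, with between 17.4% and 68.3% of genes at least as high.

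**Figure D3:**
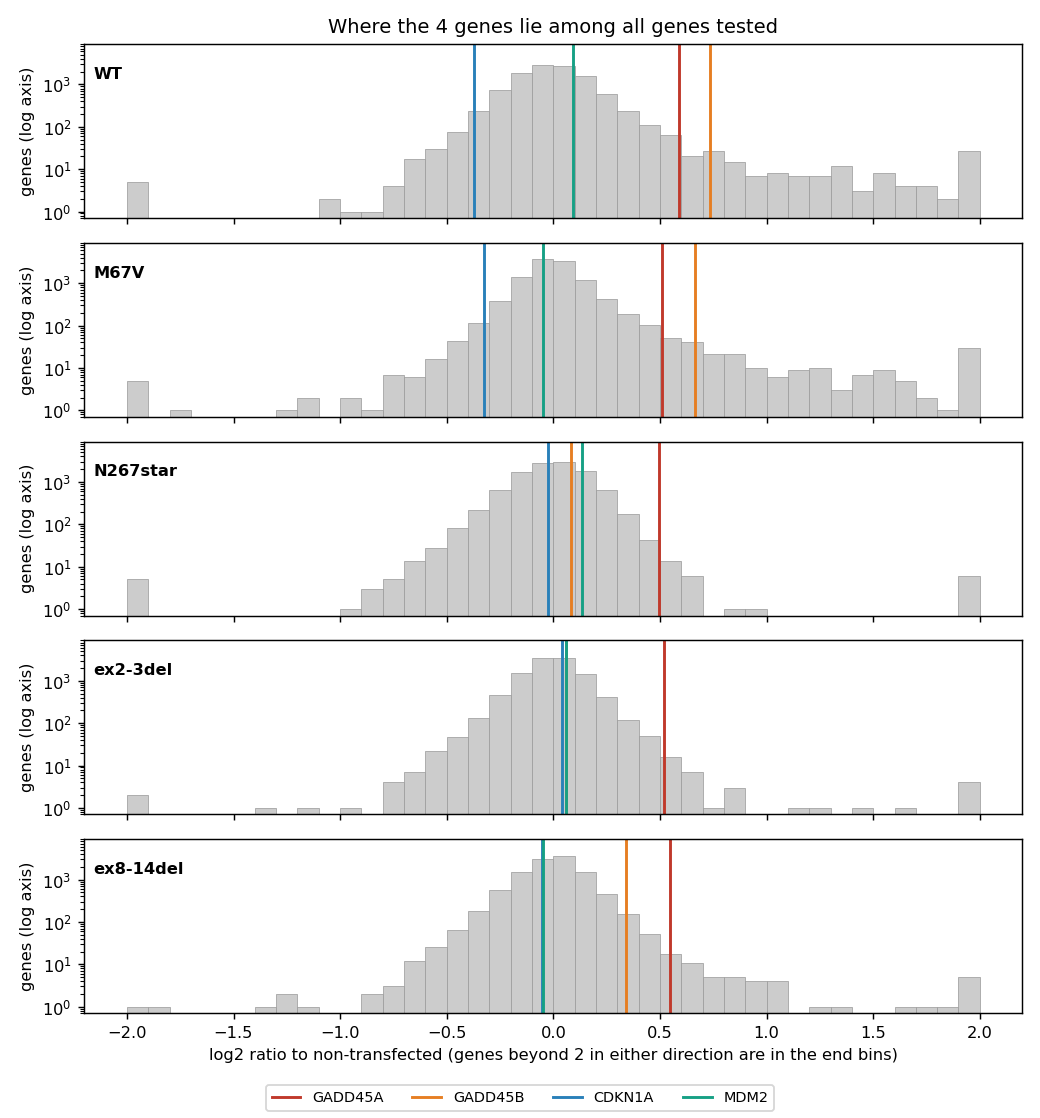
Number of genes (log axis) by log2 ratio to the non-transfected library in bins of 0.1, for genes with at least 5 CPM in either library, 1 panel per transfected library. Coloured lines mark GADD45A, GADD45B, CDKN1A and MDM2, and lines that coincide hide each other (GADD45B and MDM2 in ex2-3del, CDKN1A and MDM2 in ex8-14del). GADD45A lies in the upper tail in all 5 panels and GADD45B near the centre in N267star and ex2-3del.

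The authors' deposited tables, made with DESeq on 1 library per side, were read for the members' adjusted p-values. In the authors' deposited table named X373 where the sample labels have WT, GADD45A had a DESeq adjusted p of 0.0485. For GADD45A the authors' deposited table gave a DESeq adjusted p of 0.198 in M67V and 1 in N267star, and 0.743 and 0.321 in ex2-3del and ex8-14del. For GADD45B the authors' deposited table gave DESeq adjusted p of 0.151 under that number and 0.356 in M67V, and for CDKN1A 0.152 and 0.372. All values of GADD45G and MDM2, and those of GADD45B and CDKN1A in the other 3 alleles, had an adjusted p of 1 in the authors' deposited table from DESeq. With 1 library per side these p-values rest on an assumed spread, not on replicates.

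The genes around the members were followed in lists that were written with earlier results of these data known. MDM4, the closest relative of MDM2, stood at 54.4 CPM without transfection, between 57.0 and 60.2 CPM in M67V and WT, and between 48.8 and 55.9 CPM in the other 3. A list gene counted as measured with at least 1 CPM in either library, and over all such genes between 0.419% (N267star) and 2.07% (M67V) were higher and between 0.608% (ex2-3del) and 0.849% (WT) lower.

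Partners of the GADD45 proteins showed few differences. Of 15 measured genes, MAPK11, which encodes p38 beta, met the criterion in M67V (0.72, 0.20 to 1.30) and in ex2-3del (0.59, 0.06 to 1.17), on a level of 2.87 CPM in the non-transfected library. Over all measured genes, 2.07% were higher in M67V and 0.616% in ex2-3del. With the minimum of 5 CPM used for the counts of all genes, MAPK11 was not eligible and no gene of this list met the criterion in either library. MAP3K4, the kinase that GADD45 proteins activate, lay between 63.0 and 69.2 CPM in the 6 libraries. PCNA, the replication clamp, stood at -0.05 (-0.11 to 0.01) in WT, and CCNB1, cyclin B1, at -0.12 (-0.19 to -0.05). The list's medians lay between -0.07 (M67V) and 0.03 (N267star).

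Among the other 7 CDK inhibitors, CDKN1C, which encodes p57, met the criterion in ex8-14del alone, at 5.12 CPM against 2.50 CPM (0.997, 0.48 to 1.61). Over all measured genes, 0.669% were higher in ex8-14del. CDKN2B, which encodes p15, was nearest to the criterion in WT, at 0.44 (0.22 to 0.67). CDKN1B, which encodes p27 and is the closest functional relative of p21, stood at -0.11 (-0.25 to 0.03) in WT and -0.0045 in M67V, both with intervals that include 0. None of the 7 was lower by the criterion. Of the 13 cyclins, CDKs and RB family genes that act below p21, none met the criterion in any allele. CCNE2, cyclin E2, had the largest ratios, 0.55 (0.39 to 0.72) in WT and 0.47 (0.30 to 0.63) in M67V, and it overlaps the expressed genes INTS8 and NDUFAF6. CDK2, the main target of p21, stood at -0.01 (-0.09 to 0.07) in WT.

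**Figure D4:**
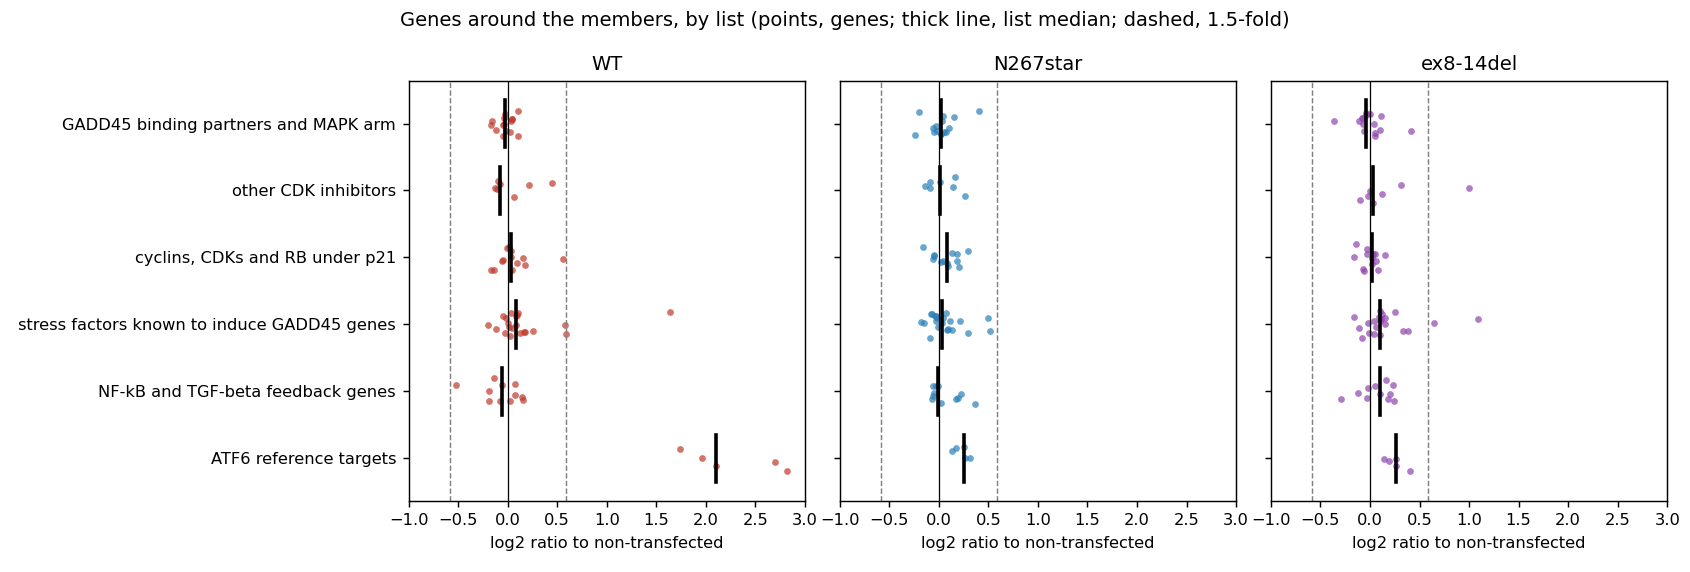
Log2 ratio to the non-transfected library of each measured gene in 6 lists around the members, for WT, N267star and ex8-14del (points are genes with at least 1 CPM in either library, thick lines are list medians, dashed lines are 1.5-fold). The ATF6 reference targets have a median of 2.10 in WT and 0.26 in both N267star and ex8-14del, with all 5 genes above 0 in each. The other lists centre near 0, and single genes such as DDIT3 in WT at 1.64 lie apart.

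Transcription factors known to induce GADD45 genes differed among themselves. DDIT3, which encodes CHOP, stood at 20.5 CPM in WT and 20.5 CPM in M67V, 8.21 CPM in ex8-14del and 7.86 CPM in ex2-3del, and 6.09 CPM in N267star, against 6.47 CPM without transfection, although it overlaps the expressed genes MARS and MBD6. WT and M67V stood apart, as in GADD45B. The DDIT3 levels of ex8-14del and ex2-3del rest on 138 and 133 counts, so their order is unresolved. In GADD45B, ex8-14del likewise did not differ from ex2-3del beyond counting error. ATF3, a stress-induced repressor and activator, stood at 30.9 CPM in WT and 34.0 CPM in M67V, 32.2 CPM in ex8-14del and 32.1 CPM in ex2-3del, and 29.1 CPM in N267star, against 20.6 CPM without transfection. As with GADD45A, the non-transfected library was the lowest and the interval of each ATF3 ratio lay above 0, from 0.49 (0.29 to 0.70) in N267star to 0.72 (0.52 to 0.92) in M67V. EGR1, an immediate-early factor, was highest in ex8-14del, at 7.79 CPM against 3.60 CPM (1.09, 0.66 to 1.58). ATF4, which the PERK branch of the stress response regulates mainly by translation, stood between 645 and 713 CPM. Of the 21 genes in this list, 2 met the criterion as higher in WT (DDIT3 and EGR1), where 1.87% of all measured genes did. In M67V 2 did (DDIT3 and ATF3, share of all measured genes 2.07%) and in N267star none (0.419%). In ex2-3del 1 did (ATF3, 0.616%) and in ex8-14del 2 (ATF3 and EGR1, 0.669%). With library totals the number in WT was 1.

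Feedback genes of the NF-kB and TGF-beta pathways, known inducers of GADD45B, had medians near the control as a list. Against the non-transfected library, none of 11 measured genes met the criterion in any allele. The list's median was -0.05 in WT, -0.04 in M67V, -0.01 in N267star and -0.08 in ex2-3del. In ex8-14del it was 0.10, with 7 of the 11 genes above 0. With WT as the reference, 1 gene was higher in N267star and 1 in ex8-14del, where 0.539% and 0.682% of all genes were. NFKBIA, the inhibitor that NF-kB itself induces, stood at 0.02 (-0.19 to 0.23) in WT, and RELB, an NF-kB subunit, at -0.52 (-1.39 to 0.24) on about 2 CPM. SMAD7, the TGF-beta feedback inhibitor, stood at 0.11 (-0.14 to 0.36) in M67V.

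The genes most like each GADD45 gene were taken as the 5 with the smallest root mean square difference in centred log2 level over the 6 libraries, each library holding 1 point. For GADD45A these were RGS2, CACNA2D3, ZNF431, MNS1 and COQ10B, at differences of 0.070 to 0.076 where the median gene stood at 0.22. MNS1 overlaps the expressed gene TEX9. For GADD45B they included RP2, PNP, OLIG2 and SLC1A4, at 0.043 to 0.068 where the median gene stood at 0.31. RP2, the nearest, went from 23.9 CPM in the non-transfected library to 41.2 CPM in WT and 36.0 CPM in M67V, with 25.5, 24.9 and 28.9 CPM in N267star, ex2-3del and ex8-14del. PNP, purine nucleoside phosphorylase, stood at 139 CPM in WT and 143 CPM in M67V, 107 CPM in ex8-14del, and between 91.0 and 97.1 CPM in the other 3 libraries. In both, ex8-14del lay between the WT and M67V libraries and the other 3. Both genes were picked for likeness to GADD45B over these 6 libraries, so this shared order follows from the choice.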

How the data were processed

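The authors deposited 1 estimated count per gene symbol and library, not normalized, for 6 libraries. No source used here names the aligner or counter, and the submitters' processing notes name GRCh37.p13 and DESeq. Genes without reads held a placeholder of 0.028, set to 0 here. Expected counts were rounded (between 3.46% and 3.55% of rows were fractional), 28 of 38072 rows with date-like names were left out (at most 0.231% of counts), and 94 rows sharing 43 symbols were summed. A second count table (6 columns) and an index sheet were not used. The authors' comparison sheets hold an adjusted p-value from DESeq, per the file headers, and their other columns were not used.

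Levels are CPM on TMM effective library sizes (edgeR 4.0.16, R 4.3.3; factors 0.985 to 1.01), and log2 ratios used a prior count of 2. Alternatives used DESeq2 1.42.0 size factors, library totals, other prior counts and filters. Intervals came from scipy 1.17.1 (Python 3.11.15, pandas 2.3.3, numpy 2.4.6) and plots from matplotlib 3.10.9, and the steps were tested on simulated data. PCR reads carry no molecular identifiers, so intervals and the floor of 3 counts cover counting error only. No strand setting is stated, so overlapping genes are uncertain. Overlap was read from GENCODE v29 (GRCh38) spans, which matched 97.1% of 11413 genes with at least 5 CPM. No member overlaps another such gene, and 24.8% of those genes do.

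The members, gene lists and motifs were chosen with earlier results of these data known. Genes named are the members, 5 ATF6 targets, MDM4, ATF6, DDIT3, ATF4, ATF3, list members at 1.5-fold or, for each list, among the 3 largest ratios in WT or M67V, and the 5 nearest patterns. Others (such as PCNA, CDK2, CDKN1B and NFKBIA) were added after their values were seen, for their known roles. Some genes and lists covered by this rule are not reported here.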

Additional observations from a re-analysis of the deposited data

How the results depend on the processing

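All 225 member ratios, over the 5 genes, 9 comparisons and 5 settings (DESeq2 size factors, library totals, prior counts of 0.5 and 5, unrounded counts), stayed within the main interval. Without GADD45G they moved by at most 0.033 on the log2 scale. The number of members at 1.5-fold changed once, from 2 to 1 (GADD45A lost) in WT with library totals. Counts of all genes at 1.5-fold depended on the filter, because low genes enter. Higher than non-transfected, there were 246 (WT), 55 (N267star), 81 (ex2-3del) and 88 (ex8-14del) genes with a minimum of 1 CPM, and 282, 308 (M67V), 76, 108 and 116 with no filter beyond 1 count. Lower, there were 112, 84, 105, 80 and 102 at 1 CPM (WT and M67V, then N267star, ex2-3del and ex8-14del), and 132, 101, 132, 100 and 126 with no filter. Against WT, higher genes numbered 83, 71, 93 and 90 at 1 CPM for M67V, N267star, ex2-3del and ex8-14del, and 99, 91, 116 and 118 with no filter. Lower ones numbered 66, 258, 234 and 228, and 98, 299, 263 and 258. Without overlapping genes, 8, 7 and 25 were higher than non-transfected in N267star, ex2-3del and ex8-14del, and 22, 12, 17, 7 and 14 lower in the 5 alleles. Against WT, 10, 5, 11 and 17 were then higher, and 9 lower in M67V. The counts at 5 CPM are the main ones: 158, 183, 15, 19 and 40 higher and 36, 27, 32, 16 and 27 lower than non-transfected, and 20, 16, 24 and 30 higher and 19, 151, 143 and 129 lower than WT. Depth left GADD45G undetermined, and 1 library per group leaves the spread between cultures unknown. No paired analysis was possible because each group has 1 library.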
